A study of Mus musculus with 16 samples.

Results

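The genes described here are the 4 kinases that phosphorylate the translation factor eIF2 (Eif2ak1, Eif2ak2, Eif2ak3 and Eif2ak4), the transcription factors Atf4 and Ddit3, the stress-induced genes Trib3 and Asns, and Ppp1r15a and Ppp1r15b, which direct the dephosphorylation of eIF2. They were taken by name: every probe that is not a control and whose gene name on the array was 1 of these 10 symbols was kept, which gave 13 of 55681 probes and 10 of 34650 gene names. RNA came from the gastrocnemius, the large calf muscle, of mice aged 8 to 16 weeks, which the study's methods describe as male littermates of the C57BL6 strain with both copies of Eif6 (WT) or with 1 copy (Het). Eif6 encodes an initiation factor that binds the large ribosomal subunit, the mutation is carried by every cell of the animal, and no group received a treatment. From each of 3 WT and 3 Het mice, total RNA of the whole muscle and RNA of the pooled polysome fractions (mRNA that carries several ribosomes) were put on single-colour Agilent arrays, and monosome RNA (mRNA on 1 ribosome) was profiled for WT mice 1 and 2 and Het mice 1 and 3, which makes 6 groups and 16 arrays.

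In the integrated stress response, each of the kinases senses a different strain: Eif2ak1 (HRI) senses a lack of haem and mitochondrial stress, Eif2ak2 (PKR) double-stranded RNA, Eif2ak3 (PERK) unfolded protein in the endoplasmic reticulum (ER) and Eif2ak4 (GCN2) uncharged tRNA. All of them phosphorylate the alpha subunit of eIF2, which lowers initiation on most mRNAs and favours a few, such as Atf4, whose leader holds short upstream open reading frames (uORFs). ATF4 and Ddit3 (CHOP) then switch on genes of amino acid supply and of recovery, among them Asns, Trib3 and Ppp1r15a (GADD34), and Ppp1r15a with its constitutive relative Ppp1r15b (CReP) brings protein phosphatase 1 to eIF2. Leaders with uORFs are also known for Ddit3, Ppp1r15a and Ppp1r15b. An array measures how much of an mRNA is in a fraction, so phosphorylation of eIF2 and the proteins themselves were not measured.

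The probes are 60 bases long and lie in the transcript sense. The last 30 bases of the probes on which the results turn most are given here, with the polyadenylation signal AATAAA or the AU-rich pentamer ATTTA in capitals, since both are known from the far 3′ ends of mRNAs.

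Atf4, 3′ probe: tgctgtgtttgctgtAATAAAttattttgt

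Atf4, 5′ probe: taacggacaaagataccttcgagttaagca

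Ppp1r15a: cctattATTTATTTATTTATTTAtttgaat

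Asns: tgaaaagaAATAAAagtttcacatctgaaa

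Trib3: ataaaagagagctgtgtggtttgatatgtg

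Atf4 had a pair of probes on the same transcript. The 3′ probe began at base 1655 of the transcript (chr15:80087902-80087961 of mouse build mm9, plus strand) and ended just past a polyadenylation signal, while the 5′ probe began at base 504 (chr15:80086639-80086698). The Ppp1r15a probe (chr7:52778320-52778379, minus strand) held 4 overlapping ATTTA pentamers in its last 30 bases, and the Asns probe (chr6:7625171-7625228, minus strand) held AATAAA. The Trib3 probe lay at chr2:152163161-152163220 on the minus strand and held neither. AATAAA was found in 8.16% and ATTTA in 3.95% of the last 30 bases of all 55681 probes. Of the 13 member probes, 3 held AATAAA and 2 held ATTTA, and 3 of these 5 are shown here.

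Upstream of the start sites, RefSeq promoters (build GRCm38.p6) were in the table for 9 of the 10 genes, and the 250 bases before each start were searched on both strands. The core of the amino acid response element, searched as TGATGNAA, to which ATF4 with a C/EBP partner is known to bind, occurred in Asns alone among these genes and in 3.45% of 32851 promoters. The cAMP response element TGACGTCA occurred in Ppp1r15a alone (1.55% of promoters), as did the core of the interferon-stimulated response element (2.98%), and the ER stress response element in none of them (0.113%). The matches do not overlap each other. They are letters in a window and were not tested for binding. The matches of the amino acid response core, which began 23 bases before the start, and of the cAMP response element, which began 12 bases before it, are shown in capitals because Asns and Ppp1r15a are among the genes whose polysome signal differed from whole muscle.

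Asns promoter, chr6:7693214-7693243, minus strand: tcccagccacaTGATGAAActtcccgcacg

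Ppp1r15a promoter, chr7:45526269-45526298, minus strand: gagaccccgcctctccggTGACGTCAgcac

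The arrays differed in brightness. The 75th percentile of the processed signal lay between 42.3 and 150 scanner units on the WT whole-muscle arrays, between 13.5 and 33.0 on the Het whole-muscle arrays, between 24.1 and 66.1 on the WT polysome arrays and between 63.1 and 106 on the Het polysome arrays. Of 10 muscle marker genes, 10 were well above background on every array. Eif6 itself was lower in Het by 0.92 on the log2 scale in whole muscle, with no overlap between the groups, and by 1.31 on polysomes (adjusted p = 0.36 and 0.193, limma). In monosomes, with 2 arrays per genotype, the Het minus WT difference of Eif6 was -1.82 (adjusted p = 0.0451, limma). WT polysome 2 and WT monosome 2 stood apart: over 233 transcripts with probes at both ends, the median of the 5′ minus the 3′ log2 signal was -0.38 and 0.23 on them and between -1.76 and -1.19 on the other 14 arrays. For the member probes called on polysomes, values without WT mouse 2 are given as well.

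Of the 13 probes, 10 probes for 9 genes passed the filter, which kept a probe if all arrays of any 1 group called it well above background. The Eif2ak4 probes did not pass: they were well above background on 7, 2 and 0 of the 16 arrays. Most of the others were dim too. In Het whole muscle, Eif2ak2 and Trib3 were not well above background on any of the 3 arrays, and Eif2ak3, Ddit3, Asns and Ppp1r15b were on 1 each. Only the Atf4 3′ probe and Ppp1r15a were well above background on all 16 arrays, and these 2 carry the firmest values. A probe that passed through the group in which it is bright had to differ between groups to some degree, so counts and medians over the 10 probes are descriptions. Eif2ak2, Eif2ak3 and Ppp1r15b passed only through the Het polysome arrays.

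**Figure D1:**
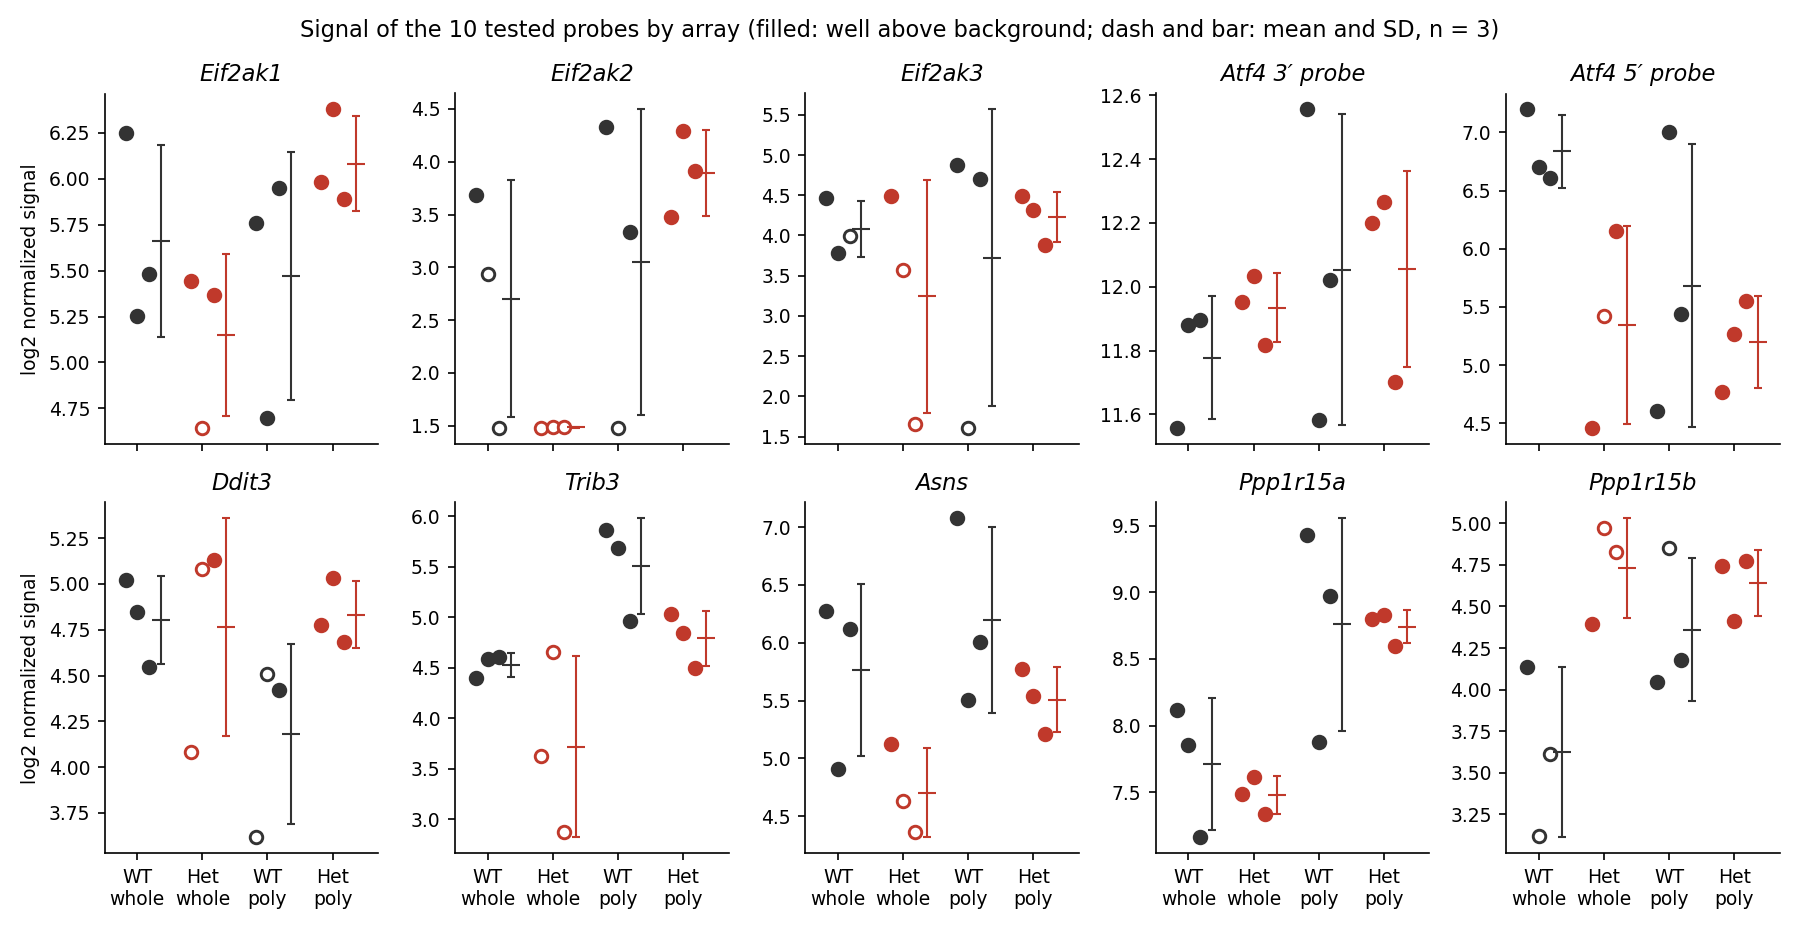
Log2 normalized signal (vertical axes, which differ between panels and do not start at 0) of the 10 tested probes in whole muscle and polysomes of WT (black) and Het (red) mice, 1 point per array, replicates 1 to 3 from left to right, with the mean and SD of each group. Open points were not well above background, and they gather in the Het whole-muscle group, where Eif2ak2 had none of 3 and Ppp1r15a had 3 of 3 arrays above it.

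Which mRNAs were over-represented on polysomes relative to the whole muscle was asked with the ratio of both RNAs of the same mouse. Ppp1r15a was higher on polysomes by 1.15 on the log2 scale, with every array well above background, and Trib3 and Asns by fitted differences of 1.03 and 0.62, in which 3 and 2 of the 3 Het whole-muscle arrays were not. No member was called lower. Eif2ak2 passed the test too, but its probe was tested only because all Het polysome arrays detected it, and no size can be stated for it. With Eif2ak2, 4 of the 10 probes were past an adjusted p of 0.05 (limma), against 25.3% of all 19812 probes and 13.5% in the higher direction, and as the filter helped to set the Eif2ak2 call, nothing is read from this count. The median over the 10 probes was 0.35, against 0.10 over all probes, but Eif2ak3 and Ppp1r15b too were tested only through the Het polysome arrays. Nothing is read from this median. Between genotypes no member passed the test: 0 of 10 probes in whole muscle (all probes 0.0101%), 0 on polysomes (0.0%) and 0 for loading, the polysome minus whole-muscle ratio of Het against WT (0.0%). At an unadjusted p under 0.05 these counts were 3, 0 and 2, where 8.45%, 15.2% and 16.9% of all probes passed. Nothing particular to these genes is read from these counts.

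Ppp1r15a, the inducible subunit that brings the phosphatase to eIF2, gave the clearest difference. Its log2 normalized signal in whole muscle was 8.12, 7.85 and 7.16 in WT mice 1 to 3 and 7.49, 7.62 and 7.33 in Het mice 1 to 3, and on polysomes it was 9.43, 7.88 and 8.97 in WT and 8.80, 8.83 and 8.60 in Het. All Het polysome arrays lay above all whole-muscle arrays, and among the WT polysome arrays only WT 2 fell within the whole-muscle range. The ratio of polysome to whole muscle was above 0 in 6 of 6 mice, at 1.31, 0.02 and 1.81 in WT and 1.31, 1.21 and 1.27 in Het. All 6 ratios were above 0 for 16.1% of all probes. The fitted mean was 1.15 (SE 0.24, adjusted p = 0.0147), a 2.23-fold higher signal on polysomes, and without WT mouse 2 it was 1.41 (adjusted p = 0.00296). Without Het mouse 1 or Het mouse 3 the adjusted p was 0.0529 and 0.0541, at differences of 1.14 and 1.15.

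Ppp1r15a did not differ between genotypes beyond the spread. The Het minus WT difference was -0.23 (SE 0.37) in whole muscle and -0.02 (SE 0.37) on polysomes, with adjusted p-values of 0.962 and 0.985. In order of the 4 group means, WT polysome (8.76 ± 0.80) and Het polysome (8.74 ± 0.12) were followed by WT whole muscle (7.71 ± 0.49) and Het whole muscle (7.48 ± 0.14, SD, n = 3 each). Within each RNA kind the neighbours in this order overlapped.

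Ppp1r15b, the constitutive subunit, was dim. In whole muscle it measured 4.14, 3.12 and 3.61 in WT and 4.39, 4.97 and 4.83 in Het, and on polysomes 4.05, 4.85 and 4.18 in WT and 4.74, 4.41 and 4.77 in Het. The Het whole-muscle arrays were all above the WT ones, a difference of 1.11 (SE 0.31, unadjusted p = 0.0044, adjusted p = 0.371, exact permutation p = 0.1, the smallest that 3 against 3 allows), but the probe was well above background on 1 of 3 arrays in each of these groups. Groups without overlap made up 2 of the 10 probes in whole muscle, the other being the Atf4 5′ probe, against 13.5% of all probes. The polysome to whole-muscle ratio of Ppp1r15b was 0.32 (SE 0.26, adjusted p = 0.387), above 0 in 3 of 6 mice, and 0.075 without WT mouse 2. Its probe was tested only because all Het polysome arrays detected it.

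**Figure D2:**
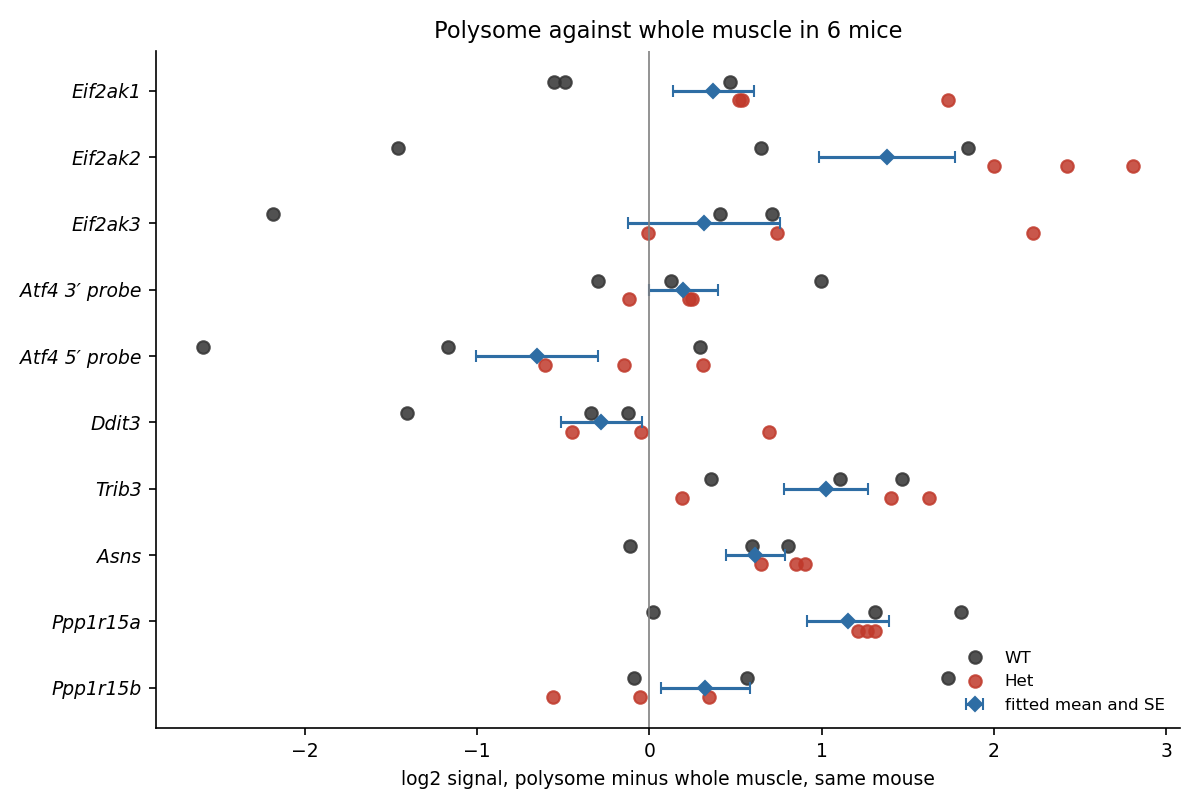
Log2 polysome signal minus log2 whole-muscle signal of the same mouse (horizontal axis) for the 10 tested probes, with 3 WT mice in black, 3 Het mice in red and the fitted mean with its SE in blue. The Ppp1r15a and Trib3 ratios lie above 0 in 6 of 6 mice, and the 3 Het mice lie to the right of the 3 WT mice for Eif2ak1 and Eif2ak2.

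Among the kinases, Eif2ak1 (HRI) was measured best. In whole muscle its signal was 6.25, 5.25 and 5.48 in WT and 5.44, 4.64 and 5.37 in Het, and on polysomes it was 5.76, 4.70 and 5.95 in WT and 5.98, 6.38 and 5.89 in Het. The ratio of polysome to whole muscle was -0.49, -0.56 and 0.47 in WT and 0.54, 1.74 and 0.52 in Het. Thus the 3 Het ratios lay above the 3 WT ratios, narrowly, by 1.12 on average (SE 0.47, unadjusted p = 0.0472, adjusted p = 0.289, exact permutation p = 0.1). The difference was 0.94 without WT mouse 2 and 0.72 without Het mouse 2. Over both genotypes the ratio was 0.37 (SE 0.23, adjusted p = 0.283).

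Eif2ak2 (PKR) sat at the edge of detection. In whole muscle it measured 3.69, 2.94 and 1.48 in WT and 1.48, 1.48 and 1.49 in Het, and on polysomes 4.33, 1.48 and 3.33 in WT and 3.48, 4.29 and 3.92 in Het. None of the arrays near 1.48 was well above background. Only 1 of 6 whole-muscle arrays was well above background, against 5 of 6 polysome arrays. The 3 Het polysome arrays had to detect the probe for it to be tested, so nothing is read from this contrast. The fit gave 1.38 higher on polysomes (SE 0.39, adjusted p = 0.0420) and 1.83 without WT mouse 2 (adjusted p = 0.00522). Without any other mouse the adjusted p was between 0.0818 and 0.109. Moreover, the Het polysome mean of 3.89 was under the lowest signals called well above background on the Het whole-muscle arrays (mean 4.39), so no fold can be stated. The 3 Het ratios lay above the 3 WT ratios, but with 0 of 3 Het and 1 of 3 WT whole-muscle arrays above background this is no measured size. The fitted difference of 2.07 (adjusted p = 0.258) was 1.16 without WT mouse 2.

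Ratios without overlap between genotypes were found for these 2 of the 10 probes, against 25.3% of all probes. As Eif2ak2, Eif2ak3 and Ppp1r15b were tested only through the Het polysome arrays, a median over the members is a description. The median difference of the ratio was 0.53 over the members and 0.17 over all probes. Muscle markers had a median of 0.73, above 0 in 9 of 10 genes, and blood markers one of -1.10, above 0 in 1 of 5, with none called, and their part in the member values was not tested. Both fitted differences moved with array brightness. With the brightness of the arrays as a term in the fit, the Het minus WT difference of the ratio was -0.39 for Eif2ak1 and -0.03 for Eif2ak2. Since the Het whole-muscle arrays were the dimmer ones and the Het polysome arrays the brighter ones, genotype and brightness cannot be told apart in these 6 ratios.

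Eif2ak3 (PERK) scattered widely. Its whole-muscle signal was 4.46, 3.79 and 3.99 in WT and 4.49, 3.58 and 1.66 in Het, and on polysomes 4.88, 1.60 and 4.70 in WT and 4.49, 4.32 and 3.88 in Het. The low values, Het whole muscle 3 and WT polysome 2, were not well above background. The probe was tested only because all Het polysome arrays detected it. No difference passed the test: the polysome to whole-muscle ratio was 0.32 (SE 0.44, adjusted p = 0.624) and 0.77 without WT mouse 2 (adjusted p = 0.127). The Het minus WT difference was -0.84 (SE 0.85) in whole muscle and 0.50 (SE 0.85) on polysomes. Leaving out 1 mouse, the whole-muscle difference ran from -1.46 to -0.045.

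Eif2ak4 (GCN2), which was not tested, ranged from 2.04 to 4.96 over the 12 whole-muscle and polysome arrays at its brightest probe, with group means of 4.36 in WT whole muscle, 4.22 in Het whole muscle, 3.59 on WT polysomes and 4.35 on Het polysomes. Of these groups only Het whole muscle had no array well above background for it. The other Eif2ak4 probes, which carry Ensembl transcript names of their own on the array, had group means between 1.83 and 3.63. Eif2ak4 was thus detected at its brightest probe on 6 of these 12 arrays.

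**Figure D3:**
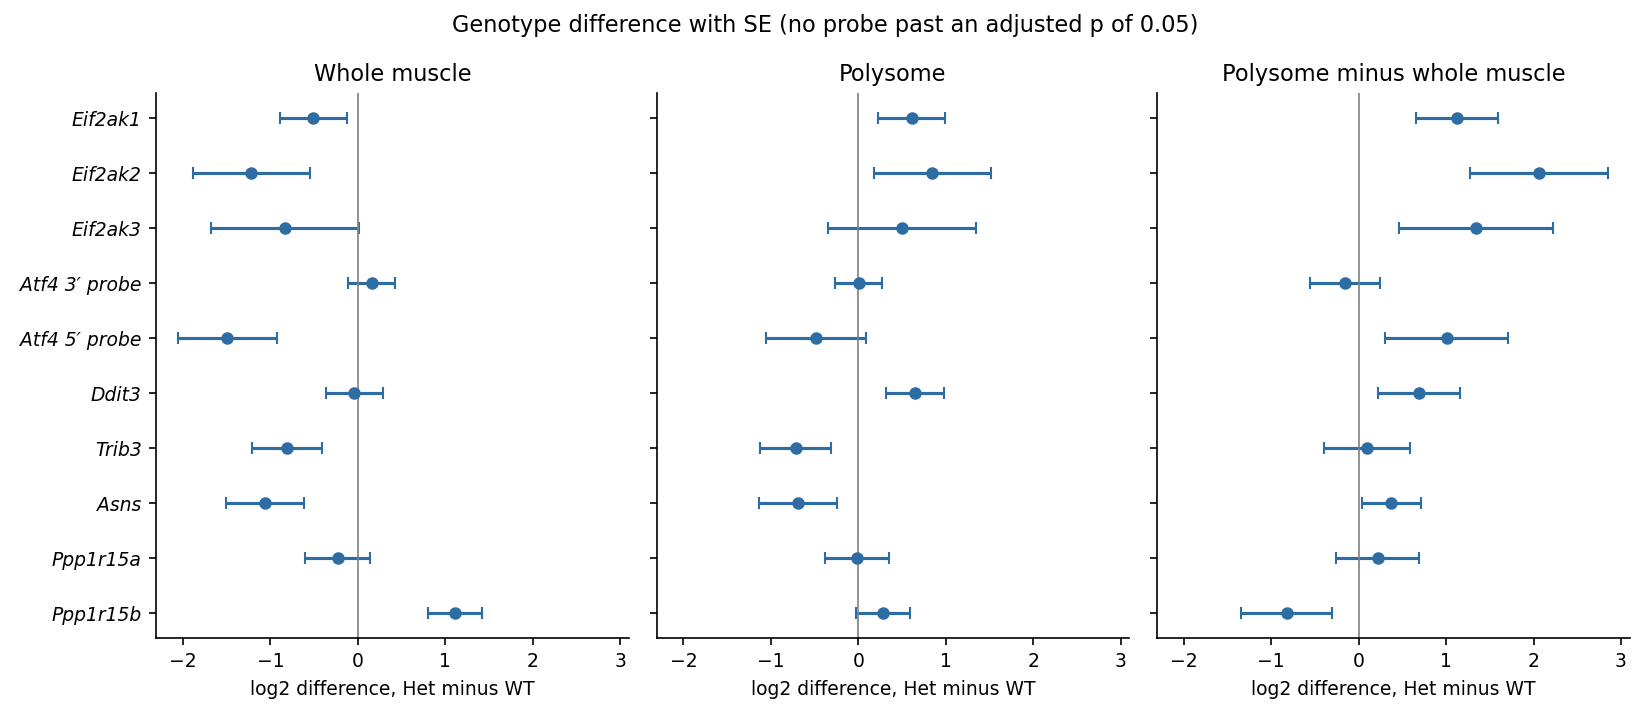
Het minus WT difference on the log2 scale (horizontal axis) with its SE from the limma fit for the 10 tested probes, in whole muscle, on polysomes, and for the polysome minus whole-muscle ratio. Ppp1r15b lies at 1.11 and the Atf4 5′ probe at -1.49 in whole muscle, Eif2ak1 at 1.12 in the ratio, and none passed an adjusted p of 0.05.

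For Atf4, the transcription factor at the centre of the response, the 3′ probe was bright and even. Whole muscle gave 11.56, 11.88 and 11.90 in WT and 11.95, 12.03 and 11.82 in Het, and on polysomes 12.56, 11.58 and 12.02 in WT and 12.20, 12.27 and 11.70 in Het. The 12 values ran from 11.56 to 12.56, and the groups overlapped throughout. The ratio of polysome to whole muscle was 0.20 (SE 0.20, adjusted p = 0.490), above 0 in 4 of 6 mice. Under scaling of each array to its 75th percentile the ratio was -0.19. The Het minus WT difference was 0.16 (SE 0.27) in whole muscle and 0.0025 (SE 0.27) on polysomes.

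The 5′ probe of the same mRNA gave another picture. Its whole-muscle signal was 7.20, 6.70 and 6.60 in WT and 4.46, 5.42 and 6.15 in Het, and on polysomes 4.61, 7.00 and 5.44 in WT and 4.77, 5.27 and 5.55 in Het. In whole muscle every Het array was below every WT array, by 1.49 on average (SE 0.57, unadjusted p = 0.0238, adjusted p = 0.527, exact permutation p = 0.1), where the 3′ probe was higher in Het by 0.16. Its polysome to whole-muscle ratio was -0.65 (SE 0.35, adjusted p = 0.215) and, without WT mouse 2, -1.01 (adjusted p = 0.0341), where the 3′ probe gave 0.34 (adjusted p = 0.190). The probes of Atf4 therefore disagree, and the 3′ probe, which stands for the gene, was called in neither comparison. The 5′ minus 3′ signal of Atf4 in whole muscle was -4.37, -5.17 and -5.29 in WT and -7.43, -6.58 and -5.65 in Het. The array-wide median of the 5′ minus the 3′ signal was -1.19, -1.44 and -1.54 in WT and -1.76, -1.53 and -1.34 in Het. It was -1.70 on WT polysome 1, where Atf4 gave -7.90. The part of this array-wide difference in the 5′ probe values was not tested.

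Ddit3 (CHOP), read by a probe whose 60 bases span 304 bases of the genome, was close to background. Whole-muscle values were 5.02, 4.85 and 4.55 in WT and 4.08, 5.08 and 5.13 in Het, and on polysomes 3.62, 4.51 and 4.42 in WT and 4.77, 5.03 and 4.68 in Het. On polysomes every Het array was above every WT array, by 0.65 (SE 0.33, adjusted p = 0.363, exact permutation p = 0.1) and by 0.37 to 0.81 leaving out 1 mouse. It was the only 1 of 10 probes without overlap there, against 21.8% of all probes, and in WT it was well above background on 1 of 3 polysome arrays. Its polysome to whole-muscle ratio was -0.28 (SE 0.23, adjusted p = 0.412), below 0 in 5 of 6 mice.

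Trib3, a pseudokinase induced by ATF4 and CHOP, was higher on polysomes in 6 of 6 mice. Whole muscle measured 4.39, 4.58 and 4.61 in WT and 3.63, 4.66 and 2.87 in Het, and on polysomes 5.86, 5.69 and 4.97 in WT and 5.03, 4.85 and 4.49 in Het. The WT polysome arrays were all above the WT whole-muscle arrays, and in Het 1 whole-muscle array reached into the polysome range. In WT, where all 6 arrays were well above background, the ratio was 0.98 ± 0.57 (SD, n = 3). The fitted ratio over both genotypes was 1.03 (SE 0.25, adjusted p = 0.0235) and 0.99 without WT mouse 2 (adjusted p = 0.0466). Without WT 1, Het 1 or Het 3 the adjusted p was 0.0659, 0.0818 and 0.0843. In Het, whole muscle was not well above background. The Het polysome mean was 1.32-fold above the lowest signals called well above background on the Het whole-muscle arrays. This holds for the means in the main normalization, and the ratio of Het mouse 2 was 0.19. Between genotypes, the whole-muscle groups overlapped (adjusted p = 0.626), and no fold is stated against the undetected Het signal. On polysomes Het was lower than WT by 0.72 (SE 0.40, adjusted p = 0.400).

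Asns, asparagine synthetase and a classical ATF4 target, was 6.27, 4.91 and 6.12 in WT and 5.12, 4.63 and 4.36 in Het whole muscle. On polysomes it was 7.08, 5.51 and 6.01 in WT and 5.77, 5.54 and 5.21 in Het. The ratio was above 0 in 5 of 6 mice, with WT mouse 3 at -0.11, and the fitted mean was 0.62 (SE 0.17, adjusted p = 0.0373), a 1.53-fold higher signal. Leaving out any 1 mouse other than WT 3 took the adjusted p above the threshold, to between 0.0577 (at 0.57, without WT mouse 2) and 0.116. Het was lower than WT in whole muscle by 1.06 (SE 0.45, unadjusted p = 0.0364, adjusted p = 0.568) and on polysomes by 0.69 (SE 0.45, adjusted p = 0.450), and the genotypes overlapped in both.

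The calls on polysomes differed in how far they held. Ppp1r15a passed an adjusted p of 0.05 under 12 of 17 alternative settings, Trib3 under 8 of 16 and Asns under 3 of 16. The difference stayed above 0 for Ppp1r15a, Trib3 and Asns under all of them. Eif2ak2 passed under 4 of 16, but as only the Het polysome arrays let its probe into the test, nothing is read from that count. On the arrays of slide 1 alone Ppp1r15a differed by 1.4, Trib3 by 1.22 and Asns by 0.72. Those of slide 2 gave 1.11, 0.76 and 0.33 in the same order, and no probe of the whole array was called within either slide. The dim probes depended on the background correction: under normexp with an offset of 50 units, Trib3 and Asns differed by 0.29 and 0.27, while bright Ppp1r15a differed by 0.91. Without the pairing by mouse, Eif2ak2 and Asns were not called (adjusted p = 0.056 and 0.185). Some markers of other cell types were higher on polysomes as well. Of the adipocyte markers 3 of 4 tested genes and of the fibroblast markers 3 of 5 were higher on polysomes, at medians of 1.11 and 0.79, and none was lower. Of the immune markers 1 of 7 was called higher (median 0.36), and of the blood and endothelial markers 0 of 5 and 0 of 4 were called (medians 0.56 and 0.38). The summed log2 signal of the 5 adipocyte markers, of which 4 were well above background on every array, was 11.78 to 12.74 in WT and 11.88 to 12.87 in Het whole muscle, and 13.03 to 14.43 and 13.78 to 13.92 on polysomes. That of the 5 fibroblast markers was 14.61 to 14.92 in WT and 14.10 to 14.90 in Het whole muscle, and 15.78 to 15.84 and 15.18 to 15.34 on polysomes. Of 10 muscle markers, 1 was higher and 2 were lower (median -0.33), and of 5 markers of slow muscle fibres 2 were higher and 0 lower (median 0.21). The part of other cells in the values of Ppp1r15a, Trib3, Asns and Eif2ak2 was not tested, and in such bulk RNA fewer cells of a type and less RNA per cell cannot be told apart.

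In whole muscle, 8 of the 10 member probes were lower in Het (median -0.66, all probes -0.03), and 46.2% of all probes were higher in Het. Immune markers were lower there as well, in 7 of 7 tested genes (median -1.52, none called), with a summed log2 signal of 9.85 to 11.79 in WT and 9.56 to 9.97 in Het. Muscle markers were higher in Het in 2 of 10 genes (median -0.31), fibroblast markers in 1 of 5 (median -0.37) and ER stress genes in 4 of 19 (median -0.26). Slow-fibre markers were higher in 4 of 5 (median 0.12) and blood markers in 3 of 5 (median 0.08). The part of any of these in the member values was not tested. With array brightness as a term, Eif2ak1, Eif2ak2, Eif2ak3 and Ppp1r15a were higher in Het, at 0.63, 0.53, 1.02 and 0.60.

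The genes around this pathway were counted from lists chosen by function, to be read against the 25.3% of all probes called on polysomes and the 13.5% called higher. Of 9 tested genes of eIF2, its partner eIF5 and the exchange factor eIF2B, 1 was higher and 1 lower on polysomes than in whole muscle: Eif2b4, the delta subunit of eIF2B, by 0.58 (SE 0.16, adjusted p = 0.0368), and Eif2b3, the gamma subunit, fell by 1.11 (SE 0.27, adjusted p = 0.0241). Their median was -0.23. Of 8 regulators of the kinases 1 was higher, Prkra, an activator of PKR, at 0.85 (SE 0.24, adjusted p = 0.0381), with a median of -0.08. No gene of either list was called between genotypes.

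Of 32 tested targets of ATF4, 10 were higher and 2 lower on polysomes, where 13.5% of all probes were higher and 25.3% were called in either direction. Each target was read by its brightest tested probe, and among probes well above background on every array 4715 of 11478 were called. Nothing particular to the ATF4 targets is therefore read from these counts. The median of the targets was 0.42, against 0.10 over all probes. The highest were Mthfd2, a mitochondrial enzyme of one-carbon metabolism, at 1.20 (SE 0.25, adjusted p = 0.0142), Slc3a2, the heavy chain of amino acid transporters, at 1.20 (SE 0.17, adjusted p = 0.00404), and Sars, the seryl-tRNA synthetase, at 1.05 (SE 0.17, adjusted p = 0.0066). The lower ones were Iars, the isoleucyl-tRNA synthetase, at -1.22 (SE 0.24), and Cebpg, a dimerisation partner of ATF4, at -0.94 (SE 0.24). A synthetase thus stood near each end of the list.

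Other mRNAs known for uORFs gave 2 higher and 0 lower of 8 tested genes, with a median of 0.26: Azin1, the antizyme inhibitor, at 1.12 (SE 0.19, adjusted p = 0.00703) and Cebpb, which is also among the ATF4 targets, at 0.92 (SE 0.16, adjusted p = 0.00777). Of 19 tested genes of the ER stress response only Ern1, the ER stress sensor IRE1, was called, at 0.99 (SE 0.17, adjusted p = 0.00882). The interferon-stimulated genes, a group to which Eif2ak2 belongs, gave 3 higher and 0 lower of 12: Oasl2 at 1.34 (SE 0.34), Bst2 at 1.12 (SE 0.15) and Isg15 at 0.74 (SE 0.18). Against 13.5% of all probes called higher, nothing particular to the uORF, ER stress or interferon lists is read from these counts. None of these lists had a called gene between genotypes, in whole muscle, on polysomes or in the ratio.

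**Figure D4:**
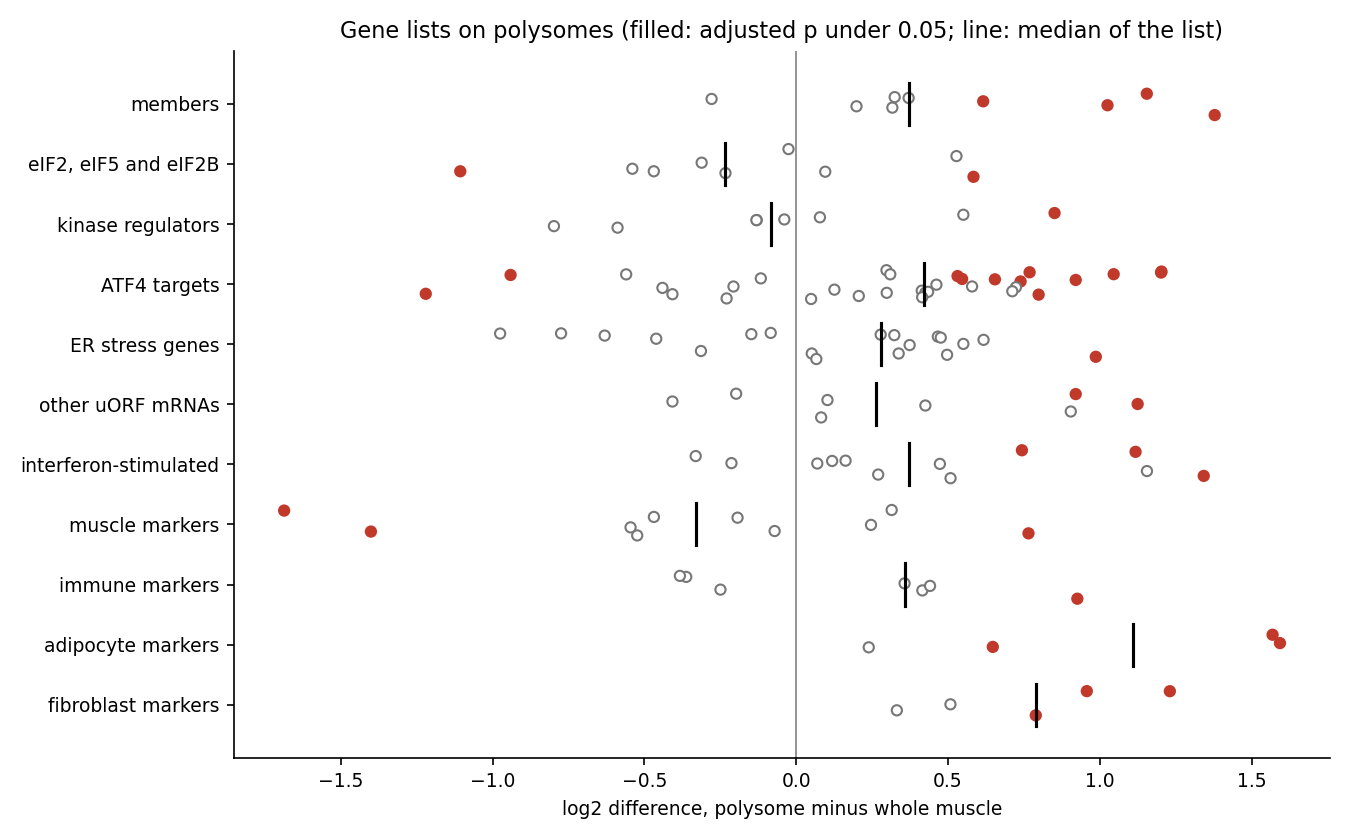
Log2 difference between polysome and whole-muscle signal (horizontal axis, fitted over 6 mice) of the member genes, of 6 lists of related genes and of markers of 4 cell types, 1 point per tested gene, filled where the adjusted p was under 0.05 and with the median of each list as a line. The members (median 0.37 with 1 probe a gene) and the ATF4 targets (0.42) lie to the right of 0, as do the adipocyte (1.11) and fibroblast markers (0.79). So do the interferon-stimulated genes (0.37), immune markers (0.36), ER stress genes (0.28) and other uORF mRNAs (0.26). The medians of eIF2, eIF5 and eIF2B, of the kinase regulators and of the muscle markers lie to the left.

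Against monosomes, the question was which mRNAs sit on several ribosomes rather than on 1, in the 4 mice with both fractions and with all 16 arrays normalized together. No member was called (0 of 10 probes at an adjusted p under 0.05, all probes 0.0%), while 6 of 10 member probes and 41.1% of all 20250 probes had an unadjusted p under 0.05. The median over all probes was 0.17. The polysome array was brighter than the monosome array in 4 of 4 mice, with 75th percentiles of 54.7 and 29.97 in WT 1, 24.1 and 12.7 in WT 2, 73.6 and 21.2 in Het 1 and 63.1 and 36.4 in Het 3, so fraction and brightness cannot be told apart here. Eif2ak1 and Trib3 were on the polysome side and the Atf4 probes on the monosome side.

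Trib3 on polysomes exceeded its monosome signal by 1.83 and 1.86 in WT mice 1 and 2 and by 1.31 and 2.02 in Het mice 1 and 3, a mean of 1.75 (SE 0.23, adjusted p = 0.0551). It was not well above background on any of the 4 monosome arrays. The polysome mean was 1.75-fold above the lowest signals called well above background on those arrays, in this normalization only. The fitted difference was 0.37 under normexp and 0.48 with the log2 values that the authors deposited. For Ppp1r15b (adjusted p = 0.113), Eif2ak2 and Eif2ak3, which were not well above background on any monosome array either, no fold is stated.

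Atf4 went the other way. The 3′ probe measured 12.59 and 11.31 in WT and 13.05 and 12.50 in Het monosomes, and in the same normalization 12.28 and 11.30 on the polysomes of WT mice 1 and 2 and 11.92 and 11.42 on those of Het mice 1 and 3. It was lower on polysomes by 1.12 and 1.08 in the Het mice and by 0.31 in WT mouse 1, while in WT mouse 2 the fractions were alike. The mean was -0.63 (SE 0.21, adjusted p = 0.0967). The 5′ probe was lower on polysomes in 4 of 4 mice, at -1.19 and -0.44 in WT and -1.49 and -1.23 in Het, with a mean of -1.09 (SE 0.24, adjusted p = 0.0610). Among all probes, 15.7% were lower on polysomes in 4 of 4 mice. Here, other than against whole muscle, the probes at both ends of Atf4 shared a direction. Ddit3 was lower in 4 of 4 mice too, by 0.59 on average (SE 0.27, adjusted p = 0.162).

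Eif2ak1 was higher on polysomes in 4 of 4 mice, at 0.59 and 2.91 in WT and 0.90 and 0.87 in Het (mean 1.32, SE 0.43, adjusted p = 0.0919), as were 31.0% of all probes. The high value came from WT monosome 2, where the signal of 1.57, against 4.91 on WT monosome 1, was not well above background, so the mean is no measured size. Asns (0.56, SE 0.22) and Ppp1r15a (0.23, SE 0.23) were not called. Without WT mouse 2, Eif2ak1 was at 0.74, the Atf4 3′ probe at -0.71 and its 5′ probe at -1.28. Without WT mouse 1, the Atf4 3′ probe was at -0.55 and its 5′ probe at -0.90. Eif2ak2 and Ppp1r15b were tested only because all Het polysome arrays detected them, and no monosome array did, so no size is given for them. These fits rest on 3 ratios, with 1 mouse alone for its genotype, which is taken to vary like the others, so no call is read from them.

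**Figure D5:**
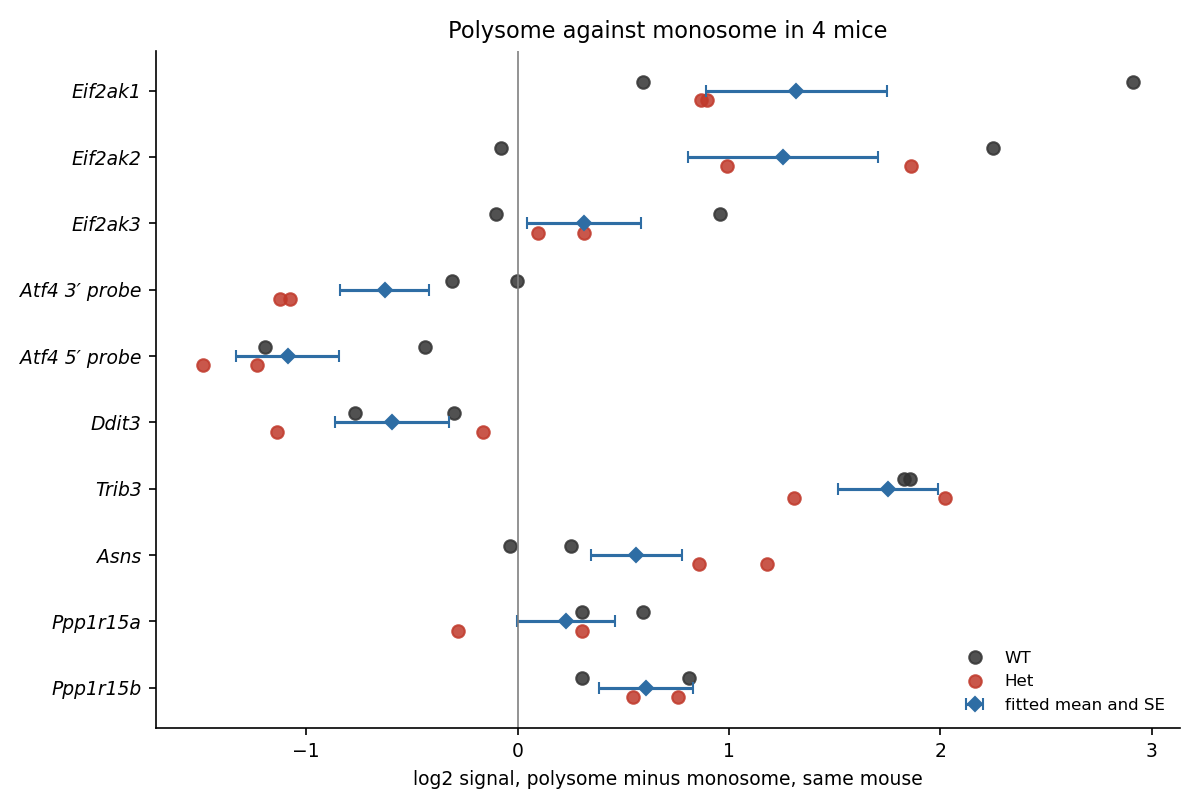
Log2 polysome signal minus log2 monosome signal of the same mouse (horizontal axis) for the 10 tested probes, with WT mice 1 and 2 in black, Het mice 1 and 3 in red and the fitted mean with its SE in blue. Trib3 lies between 1.31 and 2.02, both Atf4 probes lie at or below 0, and the Eif2ak1 point at 2.91 belongs to WT mouse 2.

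Between genotypes, monosome signals rested on 2 arrays each, and no member was called (0 of 10, all probes 0.499%), with 1 of 10 at an unadjusted p under 0.05 against 33.0%. That was Asns, at 6.54 and 5.30 in WT and 4.34 and 4.12 in Het, lower by 1.69 (SE 0.56, adjusted p = 0.0993). Only 1 of 2 WT and 1 of 2 Het monosome arrays were well above background for Asns, and leaving out 1 mouse gave -2.31 to -1.07. The Asns differences in the other RNAs of the same mice were of unsettled size too: in whole muscle it was -0.30 with array brightness as a term, and on polysomes it ran from -1.04 to -0.25 leaving out 1 mouse. On polysomes and in monosomes immune markers were lower in Het in 7 of 7 genes (medians -0.93 and -1.45) and blood markers in 5 of 5 (medians -1.14 and -1.16). Fibroblast markers were lower in 5 of 5 and 4 of 5 (medians -0.49 and -0.52), and muscle markers higher in 10 of 10 and 6 of 10 (medians 0.50 and 0.11). None of these genes was called, and their part in the Asns values was not tested. The Het minus WT difference of Ddit3 in monosomes was 0.76 (adjusted p = 0.229), 0.23 without Het mouse 1 and 1.29 without Het mouse 3, and WT monosome 2 was not well above background for it. With Asns and Trib3 it made up the 3 of 10 probes without overlap, against 50.4% of all probes, but Trib3 was not well above background on any monosome array, so that its order has no meaning. Without WT mouse 1, when WT monosome 2 stood alone and was taken to vary like the other groups, the Atf4 3′ probe and Eif2ak1 were called, as were 10777 of all 20250 probes. Without WT mouse 2 they were 0.18 and -0.12 and not called.

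Across the 16 arrays, the genes whose signal followed the Atf4 3′ probe most closely were Luzp1 (Pearson r = 0.94), Anapc5 (0.90), BC029722 (0.90), an intergenic transcript on chromosome X (0.90) and Wtip (0.89), out of 15902 genes with a median r of 0.01. The arrays share mice and differ in brightness, so these values are a description. Among the members, Ppp1r15a had r = 0.56 and rank 930, Eif2ak3 0.41 and rank 2343, and Ddit3 0.20, while Asns was at -0.01, Ppp1r15b at -0.22 and Trib3 at -0.24. Ppp1r15b was well above background on 7, Eif2ak3 on 8, Trib3 on 9, Ddit3 on 11 and Asns on 12 of the 16 arrays, so their values rest in part on background.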

How the data were processed

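Total, polysome and monosome RNA of the gastrocnemius was profiled on 16 arrays (2 slides). The authors scanned them with Agilent Feature Extraction 11.0.1.1, per the file headers, which gives a processed intensity per spot after background subtraction, and probe positions on build mm9. They also deposited a table of log2 values, which ranks spots exactly as the raw median intensity does and has quantile-equalised columns, used here as an alternative. It gives no depth; the number of arrays limits the precision.

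From the deposited intensities, spots marked non-uniform or outlying were dropped, spots of a probe averaged on the log2 scale, and arrays quantile-normalized, 12 together for whole muscle and polysomes and 16 with monosomes. A probe was tested if all arrays of at least 1 of the groups were well above background (19812 and 20250 probes). limma 3.58.1 in R 4.3.3 (lmFit, eBayes, two-sided, Benjamini-Hochberg over all tested probes, threshold 0.05) compared genotypes, and ratios of 2 RNAs of 1 mouse entered as 1 value per mouse. By the series' design, total RNA and both fractions were isolated from the muscle of every animal. Arrays with the same number and genotype were taken as the same mouse, which the labels do not state outright. Deviations of such whole-muscle and polysome arrays from the group mean correlated at 0.0583 to 0.272 in WT and 0.17 to 0.485 in Het. Exact permutation tests were two-sided. The fits were tested on simulated data. Where a group was nowhere well above background, the fold sets the other group's mean against the lowest signals called above background on the undetected group's arrays. It holds for the main normalization only.

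The 10 genes, the gene lists and the tests were chosen with earlier results of these data known. Every member probe was named, the brightest standing for its gene. From each other list up to 3 genes each way among those called on polysomes against whole muscle were named, and the 5 genes most like Atf4. RefSeq accessions on 11 of the 13 member probes matched 11 symbols. Alternatives were another scaling, normexp correction (offset 50), the authors' table, other filters, slide, array brightness, the methods' t-test with their threshold of 1 on the log2 scale, pairing and leaving out each mouse. Sequences came from the scanner files and from RefSeq promoters, and figures were drawn with matplotlib 3.10.9 in Python 3.11.15.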

Additional observations from a re-analysis of the deposited data

How the results depend on the processing

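Of 912 alternative values of single probes, 779 kept their direction and their side of the threshold, 64 reversed, 38 lost a call and 31 gained one. Among the calls counted here, those of Eif2ak2, Eif2ak3 and Ppp1r15b rest on probes that passed the main filter only through the Het polysome arrays. For polysome against whole muscle, where 4 of the 10 member probes were called, the count was 2 under normexp correction, 1 with the authors' table, 1 among probes well above background on every array, 0 with no filter (more probes tested), 0 within slide 1, 0 within slide 2 (fewer arrays), 1 by the methods' t-test after Benjamini-Hochberg adjustment, 2 with no replicate block and 0 to 4 leaving out 1 mouse. Over all probes the count was 5011, and under the same alternatives 5808, 5786, 4715 of 11478, 3020 of 55558, 0, 0, 3563, 4901 and 2324 to 5577, so normexp and the authors' table called more probes but fewer members. For monosomes of Het against WT it was 0, but 2 (8231 of all 20250 probes) within slide 2, where 1 array stands against 1, and 0 to 2 leaving out 1 mouse (10777 of all probes without WT mouse 1, where 1 WT array is left). For polysome against monosome it was 0, but 4 under 75th percentile scaling, 2 under normexp, 3 with the authors' table, 1 with every array above background, 5 within slide 2, 2 with no replicate block and 0 to 5 leaving out 1 mouse. The count over all probes there went from 0 to 5102 under 75th percentile scaling, 5039 under normexp, 5290 with the authors' table, 4717 with every array above background, 7981 within slide 2 and 5262 with no replicate block. For loading it went from 0 to 423, 443 and 608 under normexp, the authors' table and every array above background, and 0 member probes were called under any of them. With the replicate block, 0 members were called in whole muscle, on polysomes, in loading and in monosomes between genotypes, and no call changed. Same-numbered WT and Het mice share only a number (correlation of deviations -0.219 to 0.226 in whole muscle and -0.329 to 0.456 on polysomes).

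Directions reversed as follows, as Het minus WT unless said otherwise, and the cause was not tested. With array brightness as a term, Eif2ak1, Eif2ak2, Eif2ak3 and Ppp1r15a were 0.63, 0.53, 1.02 and 0.60 in whole muscle. On polysomes Eif2ak3 was -0.36 and Atf4 -0.066, in loading Eif2ak1 was -0.39, Eif2ak2 -0.034, Atf4 0.066 and Ppp1r15a -0.55, and in monosomes Eif2ak2 was -0.049 and the Atf4 5′ probe 0.16. Within slide 1, Eif2ak2, Ddit3 and Ppp1r15a were 0.0081, 0.56 and 0.31 in whole muscle, Ppp1r15a was 0.15 on polysomes, and the Atf4 3′ and 5′ probes and Ppp1r15a were 0.10, -0.22 and -0.17 in loading. In monosomes of that slide Eif2ak1, Eif2ak2, the Atf4 5′ probe and Ppp1r15a were -0.089, -0.44, 0.45 and -0.34, and Eif2ak3 was -0.14 on polysomes against monosomes. Within slide 2, Eif2ak3 was 0.37 in whole muscle, -0.60 on polysomes and -0.97 in loading, Atf4 was -0.037 on polysomes, Asns -0.16 in loading, Ppp1r15b -0.026 in monosomes, and Ddit3 0.13 on polysomes against whole muscle. With the authors' table, Ddit3 was 0.019 in whole muscle, Eif2ak3 -0.044 and Atf4 -0.022 on polysomes, Trib3 -0.16 in loading and Ppp1r15b -0.014 in monosomes. Under normexp, Atf4 was -0.0058 on polysomes and Trib3 -0.12 in loading. Under 75th percentile scaling, Ppp1r15a was 0.0496 on polysomes, Trib3 -0.086 in loading, Atf4 -0.19 on polysomes against whole muscle and Eif2ak3 -0.029 on polysomes against monosomes. With the replicate block the Atf4 5′ probe was 0.044 in monosomes.

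Leaving out 1 mouse gave -0.22 to 0.30 for Ddit3 in whole muscle. On polysomes it gave -0.56 to 1.08 for Eif2ak3, -0.23 to 0.25 and -1.02 to 0.17 for the Atf4 3′ and 5′ probes and -0.46 to 0.32 for Ppp1r15a. In loading it gave -0.44 to 0.21 for Atf4, -0.22 to 0.54 for Trib3 and -0.30 to 0.60 for Ppp1r15a. In monosomes it gave -0.12 to 3.23 for Eif2ak1, -0.26 to 1.03 for Eif2ak2, -0.87 to 0.70 for the Atf4 5′ probe and -0.15 to 1.11 for Ppp1r15a. Slide and brightness terms and the methods' t-test were not run for polysome against monosome, nor the methods' t-test for monosomes between genotypes. Where a probe was near background, its level is limited by signal over background, and the monosome comparisons rest on 2 arrays per genotype.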
